A study of Mus musculus with 367 samples.

Results

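The 10 chemokine genes Ccl2, Ccl3, Ccl4, Ccl6, Ccl7, Ccl9, Ccl11, Cxcl1, Cxcl12 and Pf4 were followed in single cells of healing mouse skin. They were chosen by name out of 50600 gene identifiers, and all 10 were found. The cells came from Sm22-Cre;tdTomato mice of mixed background, aged 3 to 8 weeks by the sample labels (the study's methods give a narrower range), which received square excisional wounds of 1.5 cm on the back. Sm22-Cre is driven by the promoter of Tagln, a gene of contractile cells, and tdTomato marks every cell in which Cre was active and its descendants. Viable tdTomato-high cells were sorted at post-wounding day 12, 15 or 21 from the pooled tissue of 2 to 3 mice and captured one by one in a C1 microfluidic chip. There were 3 captures at day 12, 2 at day 15 and 2 at day 21. They hold 367 cells, of which 292 passed the limits on depth, gene number and mitochondrial RNA. The capture was taken as the replicate. It is not stated whether captures of a day came from different mice, so p-values measure the spread between captures, which may be technical.

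Each cell was assigned a kind by 3 genes that are not among the 10. Cells with Col1a1, a fibrillar collagen gene, at 1000 FPKM or more, Rgs5 below 100 and Tyrobp below 50 were called matrix cells (198 cells). Cells with Rgs5, a gene of pericytes and smooth muscle, at 500 or more and Tyrobp below 50 were called mural (57 cells). Cells with Tyrobp, an adaptor of myeloid receptors, at 500 or more were called myeloid (26 cells). FPKM is the number of fragments per kilobase of transcript and per 1000000 fragments of the cell. The 11 kept cells of no kind entered no comparison. The names were checked on marker lists that include the 3 genes of the rule. All 12 myeloid markers were present in at least 50% of the myeloid cells and 0 reached that share in matrix or mural cells. In mural cells 8 of 9 mural markers reached it, against 1 in matrix cells. All 8 matrix markers reached it in matrix cells, but 7 did in mural and 6 in myeloid cells. In the myeloid cells S100a8, S100a9, Retnlg and Ly6g, which mark neutrophils, were at 0, and so were Cd3e, Cd3g and Trac of T cells. The fifth neutrophil marker, Csf3r, was found in at least 50% of the myeloid cells, and the 5 together summed to 1.65 to 54.8 FPKM per capture. Of 4 dendritic cell markers 1 reached that share, and the list summed to 0.12 to 277.2 FPKM. However, 4 of the 26 myeloid cells also had Col1a1 between 2047 and 10805 FPKM, while the other 22 lay between 0.88 and 341.4. Median estimated depth was 1436500 fragments in matrix, 1221181 in mural and 2099037 in myeloid cells.

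Chemokines are small secreted proteins that guide leukocytes along gradients through G-protein-coupled receptors. They are divided by the spacing of the first pair of cysteines, which are adjacent in the CC class and separated by 1 residue in the CXC class. In wounds, CXC ligands of Cxcr2 such as Cxcl1 attract neutrophils, CC ligands of Ccr2 such as Ccl2 and Ccl7 attract monocytes, and Cxcl12 retains cells that carry Cxcr4. The coding sequences around these cysteines are shown for 6 genes that cover both classes and the different kinds of cell described here. They were read from GENCODE transcripts of GRCm38, 5′ to 3′ and in frame, and the capitals mark the cysteine codons.
Ccl3: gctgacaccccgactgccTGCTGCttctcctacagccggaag
Ccl4: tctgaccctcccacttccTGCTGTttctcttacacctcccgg
Ccl2: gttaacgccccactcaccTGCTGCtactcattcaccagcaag
Ccl7: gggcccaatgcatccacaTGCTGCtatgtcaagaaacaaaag
Pf4: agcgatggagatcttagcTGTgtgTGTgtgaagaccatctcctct
Cxcl1: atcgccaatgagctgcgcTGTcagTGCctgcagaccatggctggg

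Several of these genes lie side by side (GRCm38, GENCODE M21). Ccl2 (chromosome 11, 82035571 to 82037453), Ccl7 (82045712 to 82047525) and Ccl11 (82057823 to 82062955) begin within 22.3 kb of each other. Ccl9, Ccl6, Ccl3 and Ccl4 lie on the same chromosome in a block of 139 kb that starts with Ccl5. The gap between the end of Ccl1, the last gene of the Ccl2 block, and the start of Ccl5 is 1.22 Mb. Pf4 (chromosome 5, 90772435 to 90773383) and Cxcl1 (90891241 to 90893115) are 118 kb apart, and Cxcl12 is on chromosome 6. Such neighbours are similar in sequence, but no stretch of 50 bases of 9 of the 10 coding transcripts occurred in a transcript of another gene. The exception was Ccl9, in which 59 of 2957 stretches were shared with transcripts of 463 other genes.

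Chemokine RNA was most abundant in myeloid cells. The 10 genes together made up a median of 1.25% of the FPKM of a myeloid cell (0.0396% to 4.86%), against 0.0899% in mural and 0.0372% in matrix cells. Pf4 weighed most in this sum, at a mean of 7601.5 FPKM in myeloid cells, followed by Ccl4 at 3249. A median of 5 of the 10 genes reached 10 FPKM in a myeloid cell, and at least 2 did in every one of the 26. In matrix and mural cells the median was 2 genes. None of the 10 reached 10 FPKM in 42 of 198 matrix cells (21.2%) and 6 of 57 mural cells (10.5%).

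**Figure D1:**
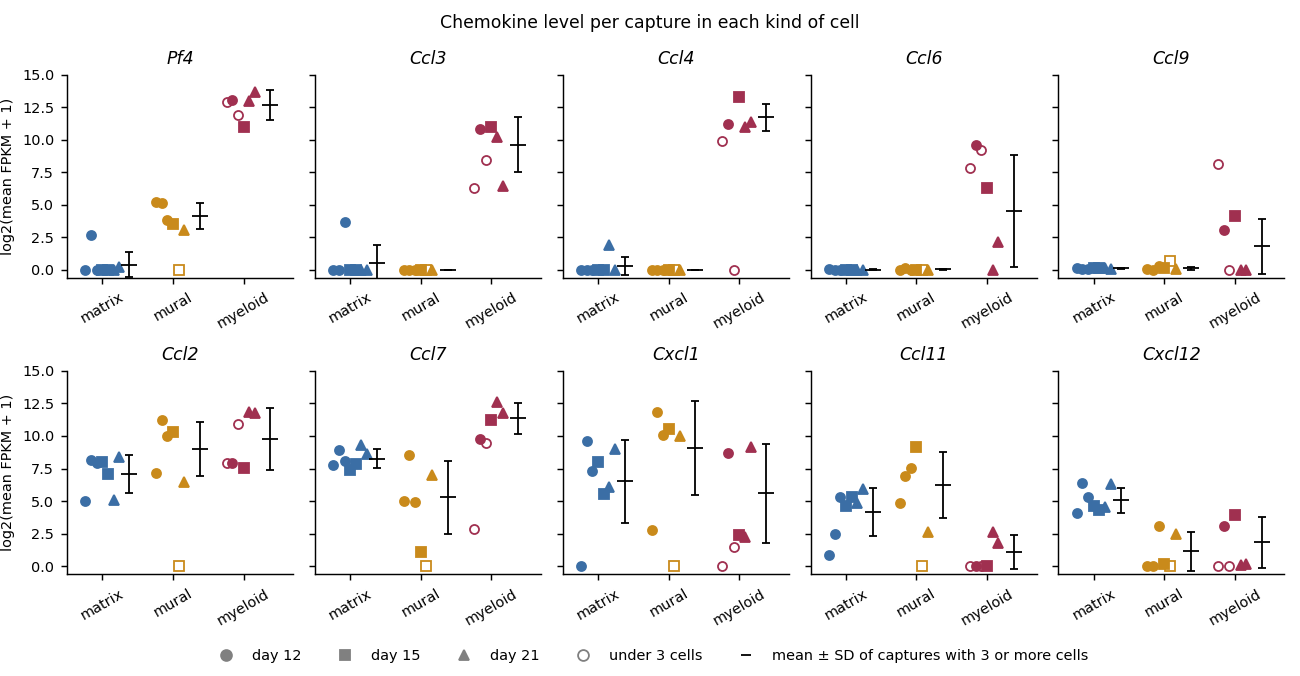
Level of each gene in each capture, as log2 of the mean FPKM of its cells plus 1, for matrix, mural and myeloid cells. Circles, squares and triangles are captures of days 12, 15 and 21, open symbols rest on under 3 cells, and the bar gives the mean and SD over captures with 3 or more cells; Pf4, Ccl3 and Ccl4 lie apart from the stromal cells in all 4 myeloid captures with 3 or more cells, while the levels of Ccl2 and Cxcl1 overlap between kinds.

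Pf4, Ccl3 and Ccl4 formed the myeloid group. Pf4, a CXC chemokine first known from platelet granules, was found in 26 of 26 myeloid cells (exact 95% interval 86.8% to 100%), with a lowest value of 164.7, a median of 7062 and a highest of 23192 FPKM. In matrix cells it was above 0 in 4 of 198 and in mural cells in 7 of 57. Its capture means in myeloid cells were 7739, 8350 and 3812 FPKM at day 12, 2015 at day 15 and 8034 and 12758 at day 21, with 1 to 11 cells in each. These do not overlap the matrix means of 0 to 5.202 or the mural means of 7.18 to 34.9 in captures with 3 or more cells. The difference from matrix cells of the same captures was 11.95 ± 0.87 on the log2(FPKM + 1) scale (SE, n = 4 captures, limma adjusted p = 3.69e-05). In that comparison Pf4 passed the filter on low values mainly through the myeloid cells, where it is high. The difference from mural cells was 8.93 ± 0.93 (n = 2, limma adjusted p = 1.91e-18). The megakaryocyte markers Itga2b and Gp9 were at 0 in all myeloid cells, and the 4 platelet markers together summed to 0 to 0.458 FPKM per capture.

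Ccl3 and Ccl4, CC chemokines that draw monocytes and lymphocytes, were close to absent outside the myeloid cells. Ccl3 was found in 21 of 26 myeloid cells (80.8%, interval 60.6% to 93.4%), at a median of 351.1 and a highest value of 6359 FPKM. Only 1 of 198 matrix cells held it, at 198.4 FPKM, and that cell also had 8 of the 12 myeloid markers. No mural cell of 57 held it, and a count of 0 allows at most 5.26% of such cells. Ccl4 was found in 18 of 26 myeloid cells (69.2%, interval 48.2% to 85.7%), in 1 matrix cell at 48.4 FPKM and in 0 mural cells. At the median depth of a mural cell, 1 fragment of Ccl3 is worth about 1.75 FPKM and 1 of Ccl4 about 2.27 FPKM.

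The levels of Ccl3 and Ccl4 varied widely among the myeloid cells themselves. Myeloid capture means of Ccl3 were 76.1, 1791 and 336.4 FPKM at day 12, 2021 at day 15 and 1149 and 87.1 at day 21. For Ccl4 they were 944.2, 2297 and 0 at day 12, 9756 at day 15 and 2055 and 2671 at day 21. The 0 belongs to a capture with 1 myeloid cell. Both genes were called higher in myeloid than in matrix cells (limma adjusted p = 0.00109 for Ccl3 and 0.000136 for Ccl4, n = 4) and than in mural cells (9.56e-09 and 1.72e-10, n = 2). Ccl3 was listed at 0 in all the stromal means of these comparisons and Ccl4 in all but 1, so no fold is given. They passed the filter on low values through the myeloid cells, where they are high, and without that filter the call of Ccl3 against matrix cells was lost (adjusted p = 0.0873). Of the 21 myeloid cells with Ccl3 at 10 FPKM or more, 16 also had Ccl4 at that level.

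The comparisons of kinds share cells, so each is given by its own values. Read against all genes, 4 of the 10 were called higher in myeloid than in matrix cells (Pf4, Ccl3, Ccl4 and Ccl7), against 1.69% of the 13059 genes tested, and 0 were called lower, against 4.9%. Against mural cells the same 4 were called higher, where 1.58% of 12058 genes were, and Cxcl1 was called lower, where 0.979% were. The median difference of the 10 genes from matrix cells was 2.63, while that of all genes tested was -0.998. From mural cells these medians were 2.46 and -0.56. The 10 genes were listed with earlier results of these data known, which limits these comparisons with all genes. Against matrix cells Pf4, Ccl3 and Ccl4 passed the filter on low values mainly through the myeloid cells. Without that filter 2 of the 10 were called there. The comparison with mural cells rests on 2 captures and on a spread pooled over genes. Without the capture as a block none of the 10 was called there, and the adjusted p of Ccl3, Ccl4 and Pf4 became 0.0629.

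**Figure D2:**
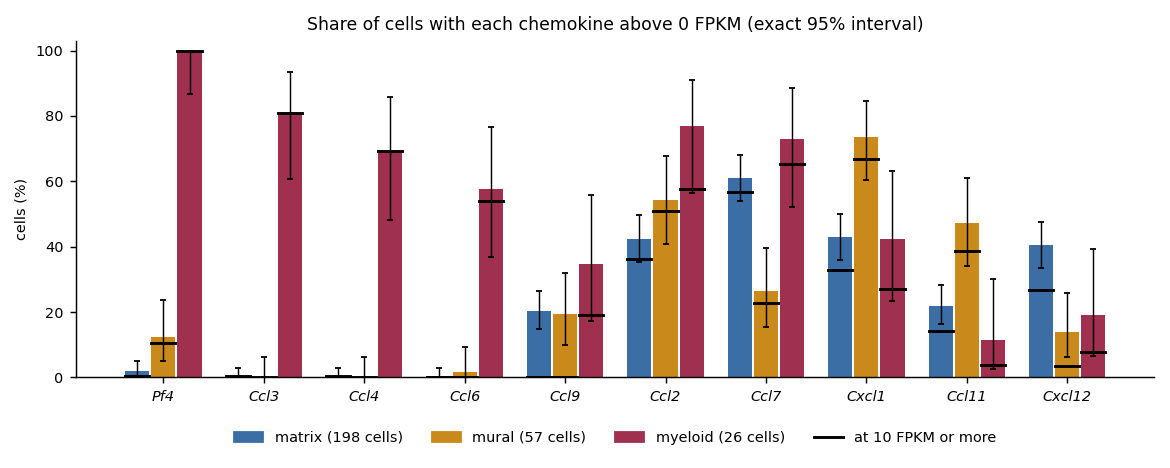
Percent of the 198 matrix, 57 mural and 26 myeloid cells with each gene above 0 FPKM, with exact 95% binomial intervals that cover counting error only. Black ticks give the percent of cells at 10 FPKM or more; the bars of Ccl9 in matrix and mural cells are 20.2% and 19.3% high while their ticks are at 0, whereas the bar and the tick of Pf4 in myeloid cells are both at 100%.

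Ccl6 and Ccl9, CC ligands of Ccr1 made by mouse macrophages, had no substantial level outside the myeloid cells. Ccl6 was found in 15 of 26 myeloid cells (57.7%), and its highest value was 3553 FPKM. A trace of Ccl6 was found in 1 matrix and 1 mural cell, at 0.88 and 0.69 FPKM, near the worth of 1 fragment. The difference was not called against matrix cells (limma adjusted p = 0.0684, n = 4) or mural cells (0.149, n = 2), and the myeloid mean of day 21 capture 1, which entered both, was at 0. With captures of 1 or 2 cells it was called against matrix (adjusted p = 0.00515) and mural cells (0.0143), and with averaged log2 values it was called against mural cells (0.00101). Ccl9 was above 0 in 40 of 198 matrix cells, but none of these exceeded 1.11 FPKM, and in 11 of 57 mural cells, at up to 2.42 FPKM. The part of the stretches that Ccl9 shares with other genes in these values was not tested. At 10 FPKM or more Ccl9 was present in 5 of 26 myeloid cells and in 0 matrix and 0 mural cells.

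Ccl6 was unequally spread over days among the myeloid cells. At day 12 it reached 10 FPKM in 12 of 14 cells, with a median of 565.2 FPKM. At day 15 it did so in 1 of 4 and at day 21 in 1 of 8, where the highest value was 10.2 FPKM. The capture means were 229.3, 773.8 and 582.1 at day 12, 78.3 at day 15, and 0 and 3.41 at day 21. Those of days 12 and 21 did not overlap, and the share of all genes for which this holds was not computed. Ccl9 was at 10 FPKM or more in 4 of 14 cells at day 12 and at 0 in all 8 cells of day 21. Pf4 reached 10 FPKM in all cells of each day, at medians of 7062, 1838 and 10558 FPKM, and Ccl3 did in 12 of 14, 3 of 4 and 6 of 8.

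In the few myeloid captures, the means of Ccl2 and Ccl7 were higher at day 21 than at day 12. Ccl7 was at 10 FPKM or more in 6 of 14 myeloid cells at day 12 (median 0.72 FPKM) and in 8 of 8 at day 21 (median 1965, lowest 135.6). Ccl2 was at that level in 7 of 14 cells at day 12 (median 66.8) and in 7 of 8 at day 21 (median 3418). At day 15, with 4 cells of 1 capture, Ccl7 reached it in 3 (median 121.6) and Ccl2 in 1 (median 4.31), so the level of Ccl2 at day 15 was below that at day 12. Myeloid capture means of Ccl2 were 240.7, 247.2 and 1921 FPKM at day 12 and 3727 and 3482 at day 21. Those of Ccl7 were 6.35, 879.7 and 712.4 at day 12 and 6187 and 3533 at day 21. With 3 captures against 2 there are 10 assignments, so the smallest two-sided p of an exact permutation test is 0.2. Ccl2, Ccl6, Ccl7 and Ccl11 reached it, the last with a mean of at most 5.23 FPKM in any of these captures. Without any day effect a gene reaches it with a probability of 0.2. The share of all genes that reach it was not computed, so no day effect is read from it. A p below the 0.05 threshold could not be had, and 2 of the day 12 captures held only 1 and 2 myeloid cells.

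**Figure D3:**
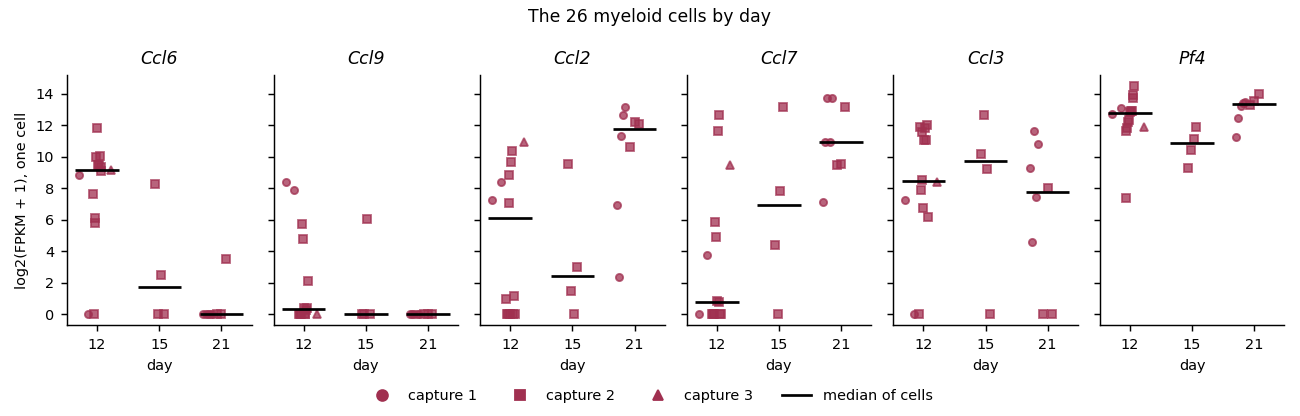
Each point is 1 of the 26 myeloid cells, plotted by day as log2(FPKM + 1), with the capture as symbol and the median of the cells of a day as line. Most day 12 cells hold Ccl6 and all day 21 cells but 1 are at 0, while Ccl7 is at least at 135.6 FPKM in every day 21 cell; Pf4 is high on all days.

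Ccl2, Ccl7 and Cxcl1 were found in all 3 kinds of cell. Ccl7 was detected in 121 of 198 matrix cells (61.1%, interval 53.9% to 67.9%), in 15 of 57 mural cells (26.3%, 15.5% to 39.7%) and in 19 of 26 myeloid cells (73.1%). Matrix capture means were 212.9, 493.2 and 263.6 FPKM at day 12, 166.3 and 231.2 at day 15 and 626.8 and 387.0 at day 21, the narrowest relative range of the 10 genes in these cells. Myeloid means were above the matrix mean in 4 of 4 captures with 3 or more cells of both, by 0.83 to 3.36 on the log2 scale. The difference was 2.67 ± 0.43 (limma adjusted p = 0.00891, n = 4), and it was lost when log2 values were averaged over cells (2.26, adjusted p = 0.284), when captures with 1 or 2 cells were included (1.21, 0.313), and without a variance trend (0.0864) or a filter on low values (0.207). Against mural cells the difference of Ccl7 was 3.42 ± 0.76 (adjusted p = 0.000853, n = 2), and it was lost without a variance trend (0.4001) and with captures of 1 or 2 cells (0.184). Mural means were below the matrix mean in 5 of 5 captures, with differences of -6.29 to -0.41. That difference was -2.98 ± 0.68 and missed the threshold (adjusted p = 0.0616, n = 5). It was called when 1 capture was left out (day 12 capture 2, -3.63, adjusted p = 0.0413) and with all deposited cells (-3.15, 0.0277). With averaged log2 values (-2.58, adjusted p = 0.00158) and with doubled kind limits (-3.94, 0.0379) it was called as well.

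Ccl2 was detected in 84 of 198 matrix cells (42.4%), 31 of 57 mural cells (54.4%) and 20 of 26 myeloid cells (76.9%). In mural cells its capture means were 142.8, 2354 and 1017 FPKM at day 12, 1265 at day 15 and 85.4 at day 21, against 31.1, 284.6, 248.1, 256.2 and 32.8 in the matrix cells of the same captures. The mural mean was the higher one in 5 of 5 captures. The difference was 2.18 ± 0.30 on the log2 scale and was called (limma adjusted p = 0.00648, n = 5). It was lost with the capture that held 1 mural cell, in which Ccl2 was at 0 (0.63, adjusted p = 0.804), and without a variance trend (0.1001) or the block (0.300). The call was also lost without a filter on low values (0.119). The myeloid mean exceeded the matrix mean in 3 of 4 captures, with a difference of 2.60 ± 0.96 that was not called (adjusted p = 0.112, n = 4). That value was called when all deposited cells were used (3.32, adjusted p = 0.0464) and with captures of 1 or 2 cells (2.71, 0.0202). Between myeloid and mural cells the difference of Ccl2 was 1.09, with a 95% interval of -0.43 to 2.61 (n = 2). The captures went opposite ways, at -3.25 and 5.43, and both lie outside this interval, which rests on a spread pooled over genes.

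Cxcl1, the main neutrophil attractant of this set, was highest in mural cells. It was found in 42 of 57 mural cells (73.7%, interval 60.3% to 84.5%), 85 of 198 matrix cells (42.9%, 35.9% to 50.1%) and 11 of 26 myeloid cells (42.3%). Mural capture means were 5.78, 3718 and 1086 FPKM at day 12, 1500 at day 15 and 1042 at day 21. The matrix means of these captures were 0, 766.2, 160.9, 252.5 and 66.8. Mural exceeded matrix in 5 of 5 captures, by 2.28 to 3.94, with a difference of 2.86 ± 0.32 on the log2 scale (limma adjusted p = 0.00221, n = 5). With the 1 mural cell of day 15 capture 2, which was at 0, it was 1.46 and was lost (adjusted p = 0.546), as it was without the block (0.511) and, narrowly, without a variance trend (0.0501). The call was lost without a filter on low values as well (0.0605). Cxcl1 was also lower in myeloid than in mural cells, by a difference of -5.50 ± 0.99 (adjusted p = 9.48e-06, n = 2), and this was lost without a variance trend (adjusted p = 0.0692) and with captures of 1 or 2 cells (-3.99, 0.258). From matrix cells the myeloid cells differed by -1.94 ± 0.93, which was not called (adjusted p = 0.200, n = 4). With all deposited cells this difference was 0.0446 on the log2 scale and was not called (adjusted p = 0.982).

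Capture 1 of day 12 stood apart for Cxcl1. None of its 31 matrix cells and 2 of its 9 mural cells held the gene, at a highest value of 50.5 FPKM. Without this capture, Cxcl1 was found in 85 of 167 matrix cells (50.9%) and 40 of 48 mural cells (83.3%). Nfkbia, an inhibitor and target of NF-kB, was at 73.5 FPKM in the matrix cells of that capture and at 66.5 to 1686 in the other captures. The 12 handling and stress genes, among them Fos, Egr1 and Zfp36, summed to 490.1 FPKM in its matrix cells and to 1484 to 4709 in the others. In mural cells that sum was 752.8, against 3302 to 5225, and Nfkbia was at 17.5, against 242.8 to 740.5 in the other captures with 3 or more mural cells. The part of these genes in the low Cxcl1 was not tested.

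Cxcl1 was unevenly spread over the stromal cells, and it varied with genes of the NF-kB and immediate early responses. Across all 292 kept cells the genes most similar to it were Gadd45b (Pearson r = 0.53), Nfkbia (0.49) and Tnfaip3 (0.48), the last also an NF-kB inhibitor. In the 57 mural cells they were Zfp36 (0.72), Fosb (0.65) and Tnfaip3 (0.62). In the 65 matrix cells with Cxcl1 at 10 FPKM or more the median of Nfkbia was 826.6 FPKM, against 28.1 in the other 133. The 38 mural cells with Cxcl1 had a median Nfkbia of 350.2, against 4.89 in the other 19, although their median depth was lower (1131778 against 1822710 fragments). These splits pool captures, and day 12 capture 1, low in both genes, gives 31 of the 133 matrix cells. Within the other 6 captures the correlation of Cxcl1 in matrix cells ran from 0.23 to 0.62 with Nfkbia and from -0.05 to 0.74 with Zfp36. Within captures of at least 8 cells the correlation with Zfp36 in mural cells ran from 0.48 to 0.81 in 4 captures, while that with Nfkbia ran from -0.04 to 0.68. These correlations describe cells that share libraries and are given without a p.

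The proximal promoter of Cxcl1 is shown because the gene varied with genes of the NF-kB and immediate early responses. It is the stretch of 120 bases before the RefSeq start (GRCm38.p6, plus strand, chr5:90891125-90891244), and the capitals mark matches on either strand to an NF-kB type motif, which is GGG, any 2 bases and TTTCC.
Cxcl1 promoter: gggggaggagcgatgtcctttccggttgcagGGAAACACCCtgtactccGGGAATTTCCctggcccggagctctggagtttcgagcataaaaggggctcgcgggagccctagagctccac
The 2 matches begin at positions -89 and -71. In 250 bases before the start, 1.41% of 32851 RefSeq promoters hold at least 1 match. Of the 6 members with a promoter in the table, Ccl9 held 1 match (at -35) and Pf4, Cxcl12, Ccl6 and Ccl3 held 0, which says only that these letters are not in this window. A second motif, of AP-1 type (TGA, any base and TCA), was sought in the same 250 bases. It occurs in 6.75% of these promoters. Ccl9 held 1 match to it, and Cxcl1, Pf4, Cxcl12, Ccl6 and Ccl3 held 0. The part of either motif in the Cxcl1 values was not tested.

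**Figure D4:**
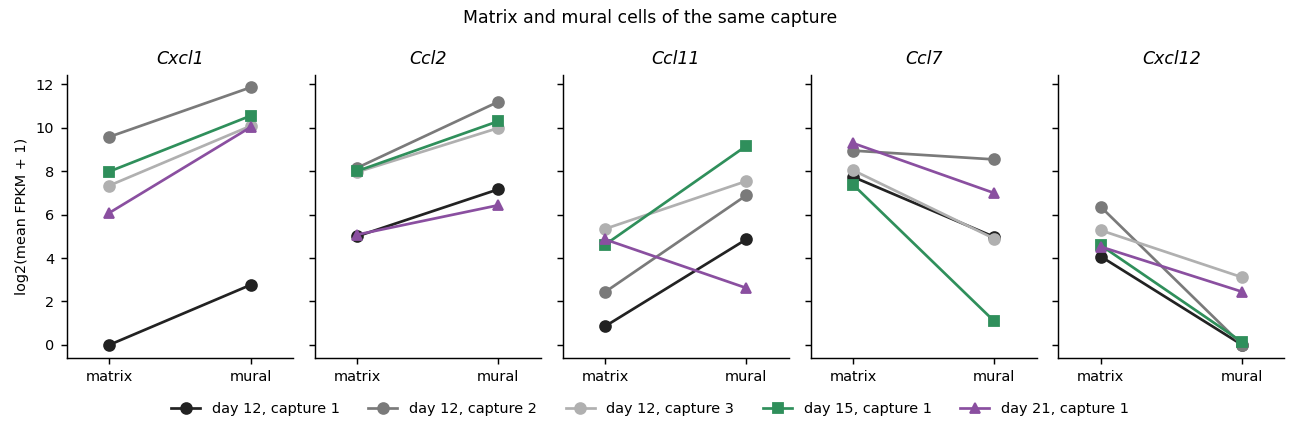
Capture means of Cxcl1, Ccl2, Ccl11, Ccl7 and Cxcl12 in matrix and mural cells, as log2(mean FPKM + 1), with a line for each of the 5 captures that hold 3 or more cells of both kinds. Lines of Cxcl1 and Ccl2 all go up from matrix to mural and those of Ccl7 and Cxcl12 all go down, while Ccl11 goes up in 4 of 5; day 12 capture 1 is the lowest line for Cxcl1.

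Ccl11 and Cxcl12 had their highest means in mural and in matrix cells, respectively. Cxcl12, a ligand of Cxcr4 made by many fibroblasts, was detected in 80 of 198 matrix cells (40.4%, interval 33.5% to 47.6%), 8 of 57 mural cells (14.04%, 6.26% to 25.8%) and 5 of 26 myeloid cells (19.2%). Matrix capture means were 15.8, 80.9 and 37.8 FPKM at day 12, 22.98 and 19.2 at day 15 and 21.9 and 80.5 at day 21. Mural means were 0 to 7.66 FPKM and lay below the matrix mean in 5 of 5 captures. The difference of -3.82 ± 0.76 was called (limma adjusted p = 0.0384, n = 5), but it was lost when any of 4 of the 5 captures was left out (adjusted p = 0.0676 to 0.136). Only day 21 capture 1 could be left out without losing it. The call was also lost with pseudocounts of 0.1 (adjusted p = 0.0652) and 10 (0.0834), without a filter on low values (0.270) and without a variance trend (0.0668). Myeloid means were below matrix means in 4 of 4 captures, with a difference of -3.55 ± 1.16 that was not called (adjusted p = 0.0801). Without the 4 myeloid cells rich in Col1a1 it was -4.55 and was called (adjusted p = 0.0468), as it was with captures of 1 or 2 cells (-3.93, 0.00847). Between myeloid and mural cells the difference of Cxcl12 was 0.38, with a 95% interval of -3.44 to 4.20 (limma adjusted p = 0.955, n = 2).

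Ccl11, an eosinophil attractant that acts through Ccr3, was found in 27 of 57 mural cells (47.4%, interval 33.98% to 61.03%), 43 of 198 matrix cells (21.7%, 16.2% to 28.1%) and 3 of 26 myeloid cells (11.5%). Its mural capture means were 28.1, 117.5 and 185.4 FPKM at day 12, 573.7 at day 15 and 5.15 at day 21. In the matrix cells of the same captures they were 0.81, 4.41, 39.6, 23.5 and 28.02. Mural exceeded matrix in 4 of 5 captures, and day 21 capture 1 went the other way. The difference of 2.59 ± 0.93 was not called (limma adjusted p = 0.228, n = 5). Without that capture it was 3.80 and was called (adjusted p = 0.0167). The myeloid means of Ccl11 lay below the matrix means in 4 of 4 captures, with a difference of -3.53 ± 0.99 that just missed the threshold (adjusted p = 0.0543). After scaling each cell to the same total it was -3.87 and was called (adjusted p = 0.0388). It was also called with captures of 1 or 2 cells (-3.38, adjusted p = 0.0104) and without the 4 myeloid cells rich in Col1a1 (-3.82, 0.0449). From mural cells the myeloid cells differed in Ccl11 by -3.44 ± 1.75, which was not called (adjusted p = 0.393, n = 2).

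The stromal kinds also differed in Pf4, at low levels. It was at 10 FPKM or more in 6 of 57 mural cells, spread over 5 captures, and in 1 of 198 matrix cells. The difference of 3.602 ± 0.66 was called (limma adjusted p = 0.0247, n = 5). Pf4 passed the filter on low values here mainly through the mural cells, where it is higher. The call was lost without that filter (adjusted p = 0.176), with a pseudocount of 10 (0.110) and with the capture that held 1 mural cell (0.0673). It was also lost without day 12 capture 1 (adjusted p = 0.107), day 12 capture 3 (0.0898) or day 15 capture 1 (0.0974). In those 6 mural cells the 12 myeloid markers summed to 0 to 134.7 FPKM and Tyrobp reached at most 15.5, against sums of 6213 to 52514 in myeloid cells. In the other 51 mural cells Tyrobp was at 0 and the marker sum was at most 748.7. The part of RNA from myeloid cells in this result was not tested. Altogether 3 of 7 members tested were called higher in mural than in matrix cells (Cxcl1, Ccl2 and Pf4), against 0.948% of 13823 genes, and 1 was called lower (Cxcl12), against 0.76%. Without the capture as a block 2 were called, Pf4 and Cxcl12. Ccl4, Ccl6 and Ccl9 were too low in these cells to be tested.

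Pairs of the genes were then compared within cells. In matrix cells, 38 of the 72 cells with Ccl2 at 10 FPKM or more also had Cxcl1 at that level (52.8%), compared with 21.4% of the cells without Ccl2. For Ccl7 these shares were 70.8% and 48.4%. In mural cells Cxcl1 was present in 79.3% of cells with Ccl2 and 53.6% of those without. In myeloid cells Ccl2 and Ccl7 went together most closely: 14 of 15 cells with Ccl2 had Ccl7 (93.3%), against 27.3% of those without. Here the log2 values correlated with r = 0.71, compared with 0.26 in both matrix and mural cells.

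The genes most similar to the other members were as follows. Pf4 followed Fcer1g (r = 0.94), Ms4a7 (0.93) and Tyrobp (0.93) over all 292 cells, and Tyrobp was used to call the kind. Ccl2 was most like Cxcl1 (0.41), Irf1 (0.36) and Gadd45b (0.34), and Ccl7 was most like Man1a (0.34), Sdc4 (0.34) and Ccl8 (0.34). Ccl11 was most like Parm1 (0.42), Tinagl1 (0.39) and Fzd4 (0.35). Cxcl12 was most like Plpp3 (0.36), Sfrp1 (0.34) and Sfrp2 (0.33), the latter both secreted Wnt modulators, and within matrix cells it was most like Steap4 (0.43), Plpp3 (0.36) and Igf1 (0.32). Within matrix cells Ccl11 was most like Col15a1 (0.39), Atf5 (0.38) and Mapk8ip1 (0.34), Ccl2 most like Nfkbia (0.38), Cxcl1 (0.37) and Hk2 (0.36), and Ccl7 most like Gadd45b (0.36), Bex3 (0.36) and Nfkbia (0.36). For Cxcl1 they were Gadd45b (0.53), Fosb (0.52) and Nfkbia (0.52). Ccl9 was most like Lair1 (0.52), B430306N03Rik (0.49) and Slc43a2 (0.47) over all cells. In matrix cells its leading genes were Atp6v0a1 (0.32), Zfp385b (0.31) and Nxpe5 (0.29), at Ccl9 values of 1.11 FPKM or less. Ccl3, Ccl4 and Ccl6 were above 0 in under 10% of the cells and were not ranked, nor was Pf4 in matrix cells.

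Matrix cells were numerous enough to compare days in all 7 captures. Of the 10 genes 6 passed the filter on low values, and limma called 0 of them at day 15 against day 12 (0% of 13552 genes were called), 0 at day 21 against day 12 (0.00738%) and 0 at day 21 against day 15 (0%). At an unadjusted p under 0.05 these comparisons held 791, 968 and 745 genes. Among the 6 members 2 differences were below it. Ccl11 was at 0.81, 4.41 and 39.6 FPKM at day 12 and at 28.02 and 59.2 at day 21, a difference of 2.51 ± 1.10 (limma adjusted p = 0.694). Ccl7 differed between days 21 and 15 by 1.32 ± 0.47 (adjusted p = 0.798). For Ccl2 the difference between days 21 and 12 had a 95% interval of -2.61 to 1.99, and for Cxcl1 it ran from -2.87 to 6.70. For Cxcl1 a day effect of several log2 units was not resolved in these cells.

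The neighbouring ligands on the chromosomes varied in the same cells. Ccl8, in the Ccl2 block and close in sequence to Ccl2 and Ccl7, was detected in 99 of 198 matrix cells (mean 348.4 FPKM) and 18 of 26 myeloid cells (mean 3921). It was called higher in myeloid than in matrix cells (3.10 ± 0.58, limma adjusted p = 0.0179, n = 4) and than in mural cells (5.05 ± 1.13, adjusted p = 0.00108, n = 2). Ccl12 lay in the same block and was found in 7 of 26 myeloid cells, at up to 21315 FPKM. It was called higher there than in matrix (7.79 ± 0.94, limma adjusted p = 0.00132, n = 4) and mural cells (adjusted p = 1.22e-06, n = 2). These calls rest on few cells. In day 12 capture 2, which entered both comparisons, 1 of 11 myeloid cells held Ccl12, at 13045 FPKM. In day 15 capture 2 it was 1 of 4. In matrix cells Ccl12 was at 10 FPKM or more in 11 of 22 cells of day 15 capture 2, which also held the myeloid cell at 21315 FPKM, and in 4 of the other 176. Ccl1 was at 0 in all 3 kinds, and Ccl5, a lymphocyte attractant that opens the other block, was at a mean of 0.0351 FPKM in mural cells and 0 elsewhere. Ppbp, Cxcl3 and Cxcl15 next to Pf4 had means below 0.345 FPKM in each kind.

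**Figure D5:**
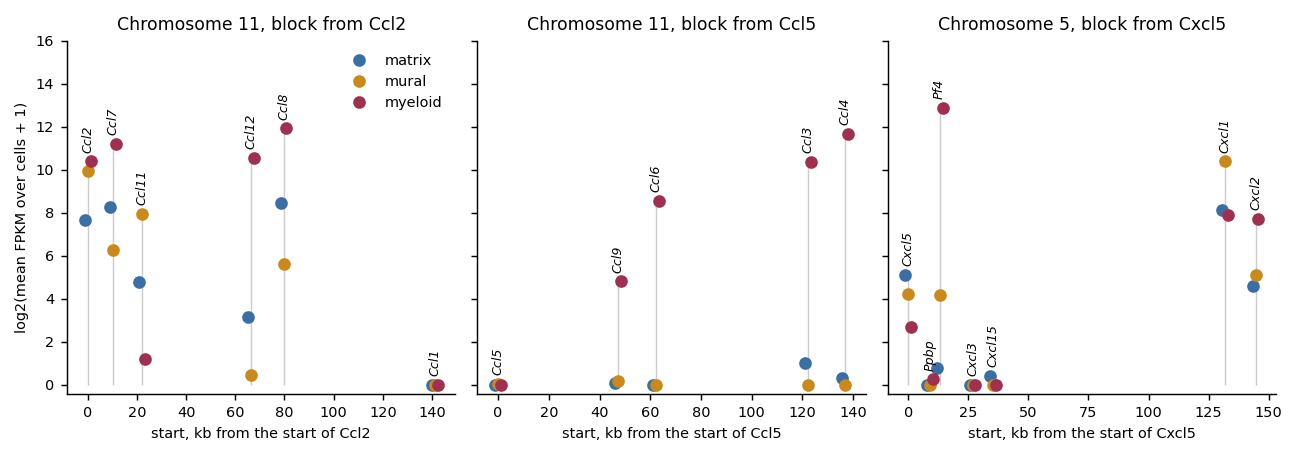
Log2 of the mean FPKM over cells plus 1 for the ligands of 3 gene blocks, by the distance of their starts in kb from the start of the leftmost gene, in matrix, mural and myeloid cells. In the block from Ccl5 the stromal means are at most 1.00 FPKM, in the block from Ccl2 all kinds are above 48.8 at Ccl2, Ccl7 and Ccl8, and in the block from Cxcl5 the myeloid mean leads at Pf4 and the mural mean at Cxcl1.

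Of 28 other ligands 11 were tested against matrix cells, where Ccl8 and Ccl12 were called higher in myeloid cells. Against mural cells Ccl8, Ccl12 and Cxcl16 were, the last a transmembrane ligand of Cxcr6 found in 20 of 26 myeloid cells. Ccl12 and Cxcl16 were at 0 in the mural cells of the captures compared. They passed the filter on low values there through the myeloid cells, where they are high. Without the capture as a block 0 genes in all were called between myeloid and mural cells. This covers the 10 chemokines, these ligands and the receptor, NF-kB and cytokine genes below. None of 10 other ligands tested was called between mural and matrix cells, where Ccl19 was found in 6 of 57 mural cells. Cxcl2, a ligand of Cxcr2 like Cxcl1, was found in 11 of 26 myeloid, 22 of 198 matrix and 9 of 57 mural cells. Cxcl5, which uses the same receptor, was found in 30 matrix and 10 mural cells. The interferon-induced Cxcl9 and Cxcl10 were each in 7 mural cells and in 28 and 23 matrix cells. Ccl25 was found in 6 mural cells and Ccl27a in 20 matrix and 3 myeloid cells. The median difference of the tested ligands was 0.51 for myeloid against matrix, 1.55 for myeloid against mural and -1.31 for mural against matrix cells, where all genes had medians of -0.998, -0.56 and -0.22.

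The receptors of these ligands were examined in the same cells. Of 23 receptor genes 10 were tested against matrix cells and 4 were called higher in myeloid cells. They were Ccr1, the receptor of Ccl3, Ccl6 and Ccl9 (5.15 ± 1.24, limma adjusted p = 0.0375), Ccrl2 (6.37 ± 1.13, 0.0143), Cx3cr1 (4.86 ± 0.98, 0.0246) and Cxcr4, the receptor of Cxcl12 (3.80 ± 1.02, 0.0486), at n = 4. Against mural cells 1 of 9 was called (Ccr1, adjusted p = 0.00481), and between mural and matrix cells 0 of 7. The median differences of the receptors tested were 2.29, 2.43 and 0.43. Ccr1 was at 0 in all 198 matrix and all 57 mural cells. It passed the filter on low values through the myeloid cells, where it is high. Against matrix cells Cx3cr1 and Cxcr4 did so as well, at matrix means of 0.068 and 0.198 FPKM. Ccr2, the receptor of Ccl2 and Ccl7, was above 0 in 7 of 26 myeloid cells. Cxcr2 was above 0 in 169 of 198 matrix, 47 of 57 mural and 21 of 26 myeloid cells, at medians of 1.06, 2.14 and 1.4 FPKM. It reached 10 FPKM in 5 matrix, 3 mural and 3 myeloid cells. Ackr3, an atypical receptor that takes up Cxcl12, was found in 38 matrix cells and Ackr4 in 28. Ccr4, Ccr9 and Xcr1 stayed at a mean of 0.244 FPKM or less in each kind.

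Among 15 NF-kB and cytokine genes, Il1b was called higher in myeloid than in matrix cells (6.74 ± 1.32, limma adjusted p = 0.0213), and no other of the 14 tested was. It was found in 9 of 26 myeloid cells and 1 of 198 matrix cells, and Tnf in 12 myeloid cells. In the comparison with matrix cells Il1b passed the filter on low values mainly through the myeloid cells, where it is high. Its matrix mean was 4.39 FPKM in day 12 capture 2 and 0 in the other captures compared. Against mural cells Il1b and Tnf were called higher, and Il6 (-7.44 ± 1.72, adjusted p = 0.00193) and Il1r1 (-4.98 ± 1.39, 0.0208) lower. Il1b and Tnf were at 0 in all 57 mural cells. They passed the filter on low values there through the myeloid cells, where they are high. Il6 was at 0 in the myeloid cells of the captures compared. It passed that filter through the mural cells, at means of 576.8 FPKM in day 12 capture 2 and 51.35 in day 21 capture 1. Il1r1, the receptor of interleukin 1, was found in 55 of 57 mural cells, at a median of 187.6 FPKM. It was the only 1 of 12 called between mural and matrix cells (2.09 ± 0.36, adjusted p = 0.0203, n = 5). Il6 was found in 19 mural cells and 31 matrix cells. The remaining genes, Nfkb1, Nfkb2, Rel, Rela, Relb, Nfkbia, Nfkbiz, Tnfaip3, Tnfrsf1a and Myd88, were found in at least 10% of the cells of each kind and none was called, and Il1a was found in 1 myeloid cell. The median differences of this list were 0.51, 0.53 and 0.48 in the 3 comparisons. Of the 12 handling and stress genes, Atf3 (5.16 ± 0.82, adjusted p = 0.00778) and Dusp1 (1.93 ± 0.50, 0.0447) were called higher in myeloid than in matrix cells and 0 in the other comparisons. The median differences of these 12 genes were 0.80, 0.57 and 0.80.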

How the data were processed

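Single-cell RNA-seq of 367 tdTomato-high wound cells in 7 C1 captures was used. The deposited values are FPKM, which the authors computed with RSEM after alignment with Bowtie 1.0.0 to mm10 with GENCODE release 13. No fragment counts were used, so no count test was run. Identifiers were named with GENCODE release 21, and 224 of 50600 had no record there. Depth was estimated from the spacing of low FPKM values, using the 9426 genes that have 1 transcript and a length over 1000 bp and taking fragments as 300 bp long. Cells below 159000 fragments by this estimate, above 11000 genes or above 15% mitochondrial FPKM were dropped, which left 27 to 73 cells per capture with median depths of 950535 to 2346560 fragments. No doublet caller was run, since wells with more than 1 cell had been excluded under the microscope. No cells held identical values.

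Means of the cells of a kind in a capture, where there were at least 3 of each kind, went into limma 3.58.1 (R 4.3.3) on the log2(mean FPKM + 1) scale, with a variance trend and the capture as a block. Genes averaging under 1 FPKM were left out. The difference understates the change of low genes. Days were compared in matrix cells without a block. Adjusted p-values are those of Benjamini and Hochberg over all genes tested, with 0.05 as threshold, and tests are two-sided. The fits of myeloid and of mural against matrix cells were also run on simulated normal values. These had no floor at 0 and were fitted without a variance trend, so they cannot vouch for the fits reported. Shares have exact Clopper-Pearson 95% intervals, which cover counting error only, and a share of 0 allows 3 divided by the number of cells. The 4 captures of myeloid against matrix cells were day 12 capture 2, day 15 capture 2 and both of day 21. Those of myeloid against mural cells were day 12 capture 2 and day 21 capture 1, and those of mural against matrix cells were all of day 12 and capture 1 of days 15 and 21.

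The members, lists and kinds were chosen with earlier results of these data known. The 10 members are named throughout, and genes of the other lists where they passed a test or were found in at least 10% of the cells of a kind, along with the 3 genes most correlated with each member among those above 0 in at least 10% of cells. Ccl1, Ccl5, Ppbp, Cxcl3, Cxcl15 and Il1a were added after their values were seen. A receptor gene that this rule names is not reported here. Alternatives were other pseudocounts, filters, scalings, cell and kind limits, averages, leaving out a capture, and fits with and without the block. Same-numbered captures of different days did not deviate together in matrix cells (correlations of -0.00685 to 0.025). Scaling each cell to the same total moved the median difference of all genes by -0.20 for myeloid against matrix, -0.25 for myeloid against mural and -0.10 for mural against matrix cells. Python 3.11.15 with numpy 2.4.6, pandas 2.3.3 and scipy 1.17.1 was used.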

Additional observations from a re-analysis of the deposited data

Results flagged for a closer look

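In 8 of 28 groups of captures looked at, 1 capture lay far from the others, at a gap above Dixon's critical value. Among the matrix cells these were 5 genes. Cxcl1 was at 0 in day 12 capture 1, while the next lowest capture was at 5.51 on the log2(mean FPKM + 1) scale. Ccl3 was at 3.66 in day 12 capture 3 and at 0 in the other captures, through 1 cell that also held 8 of 12 myeloid markers. Ccl4 was at 1.88 in day 21 capture 1, through 1 cell with no myeloid marker. Pf4 was at 2.63 in day 12 capture 2, and Ccl6 was at 0.0404 in day 12 capture 1. Among the 5 mural captures, Cxcl1 was at 2.76 in day 12 capture 1, with the next at 10.03, and Ccl6 was at 0.136 in day 12 capture 2. Among the 4 myeloid captures, Ccl4 was at 13.25 in day 15 capture 2, with the next at 11.38. Chance marks about 1 in 20 such groups, and genes at 0 in all captures but 1 are always marked.

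The 11 kept cells of no kind entered no comparison. Of these, 5 had Ccl2 at 10 FPKM or more, 4 Cxcl1, 3 Ccl7, 2 Ccl11 and 2 Cxcl12, while Pf4, Ccl3, Ccl4 and Ccl6 were at 0 in all 11.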

How the results depend on the processing

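Of 664 recomputed differences of a chemokine 591 kept their direction and their side of the threshold, 36 lost the call, 17 gained one and 20 changed sign, none of the 20 being called before. Between myeloid and matrix cells 4 of the 10 were called, 2 without a filter on low values and 7 with captures of at least 1 cell of each kind. Between myeloid and mural cells 5 were called, 3 without a variance trend and 0 without the replicate block. Leaving out a capture could not be fitted there, since only 2 captures hold both kinds. Between mural and matrix cells 4 were called, 2 with a pseudocount of 10, 0 without a filter, 1 with captures of at least 1 cell, 1 without a variance trend, 2 without the replicate block and 2 to 5 when 1 capture was left out. Unless named above, the cause was not tested. The 9 of 30 pairs of a gene and a kind with the gene found in at least 50% of cells stayed within 1.5 times under each alternative run.

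Of the values that changed sign, Cxcl1 was 0.0446 between myeloid and matrix cells and Ccl3 0.92 between mural and matrix cells with all deposited cells. With log2 values averaged over cells, Cxcl12 was -0.13 between myeloid and mural cells, and in matrix cells Ccl2 was -0.66 and Cxcl1 -0.43 between days 15 and 12 and Ccl2 0.062 between days 21 and 15. When captures were left out one at a time, the signs also varied between days. Between days 15 and 12 Ccl2 ranged from -0.50 to 1.08 and Cxcl1 from -1.71 to 3.08, with Cxcl1 at -0.13 without day 15 capture 1. Between days 21 and 12 Ccl2 ranged from -1.96 to 1.35 (0.25 without day 12 capture 2), Cxcl1 from -0.91 to 3.89 and Cxcl12 from -0.71 to 1.11 (-0.38 without day 12 capture 1). Between days 21 and 15 Ccl2 ranged from -2.48 to 0.83, Ccl11 from -0.089 to 0.965 and Cxcl1 from -0.67 to 2.28 (-0.43 without day 15 capture 2). With the replicate block between days, Ccl2 at days 21 and 12 was 0.15, with 0 members called. Capture numbers do not pair captures of different days.

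Over all genes, 861 were called between myeloid and matrix cells (31 without a filter to 2952 with captures of at least 1 cell), 308 between myeloid and mural cells (0 without the replicate block to 699 with averaged log2 values) and 236 between mural and matrix cells (19 without a filter to 657 with averaged log2 values). Between days, averaged log2 values raised the 0 genes of days 15 and 12 to 28 and the 1 gene of days 21 and 12 to 70, and a pseudocount of 10 gave 1 for days 21 and 15. Depth is estimated, and 1 fragment of the shorter transcripts is worth over 1 FPKM, so low detection is bounded by depth. The share of matrix cells with Cxcl1 without day 12 capture 1 (50.9%) was computed after seeing the data.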
